A study of Homo sapiens with 6 samples.

Results

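Integrins are the receptors that hold a cell to its matrix, and laminins are the basement membrane proteins that several of them bind. The genes described here are the protein-coding genes named ITGA, ITGB, LAMA, LAMB or LAMC in GENCODE release 29, 38 of the 58735 genes counted, made up of 26 integrin subunits and 12 laminin chains. The rule uses the gene name alone. Their transcripts were counted by RNA sequencing in A549, an established epithelial line from a human non-small cell lung cancer labelled wild type, in 3 libraries after 72 h with B35 at 2 µM and 3 libraries of untreated cells at 72 h. All the cultures were kept in DMEM with serum. LSD1, product of KDM1A, removes methyl groups from histones, and B35 is described by the series as its inhibitor. The comparison asks how transcript levels differ after B35. The labels name no solvent for the untreated cells. Nor do they tell whether replicate libraries are separate cultures, and p-values therefore reflect just the spread among these libraries.

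An integrin is a dimer of an alpha and a beta subunit, and the combination sets the ligand. ITGB1 pairs with many alpha subunits, among them the collagen receptors ITGA1 and ITGA2, the laminin receptors ITGA3, ITGA6 and ITGA7, and the fibronectin receptor ITGA5, whereas ITGB4 pairs with ITGA6 in hemidesmosomes, the junctions that tie epithelial keratins to laminin. Laminins are trimers of an alpha, a beta and a gamma chain, and LAMA3 and LAMB3 belong to the trimer known for anchoring epithelia.

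Library totals ran from 17209863 to 18530670 counts with B35 and from 17141478 to 18398450 counts in the controls. KDM1A itself had 194, 183 and 176 CPM (the count of a gene set to the same library size everywhere, with TMM factors) in the B35 libraries, against 199, 196 and 200.5 CPM in the controls (edgeR adjusted p = 0.432). The label of an epithelial line was checked with 6 epithelial markers, whose summed level was 1430 to 1774 CPM with B35 and 2184 to 2269 CPM in the controls, mostly from the keratin genes KRT8 and KRT18. The 6 did not move one way: KRT8 fell to 1117 ± 158 CPM with B35, against 1663 ± 34.9 CPM in the controls (edgeR adjusted p = 0.00611), while the adhesion molecule EPCAM rose to 7.21 ± 0.197 CPM, against 3.36 ± 0.255 CPM (edgeR adjusted p = 0.00248), and the claudin CLDN4 to 39.9 ± 9.04 CPM, against 22.3 ± 1.27 CPM (edgeR adjusted p = 0.00494; SD, n = 3 each). The part of these differences in the results was not tested. KRT19 was at 0.22 CPM with B35 and 0.243 CPM in the controls, and E-cadherin, CDH1, was at 0.65 ± 0.48 CPM with B35 and 1.34 ± 0.219 CPM in the controls (SD, n = 3 each). Of 8 leukocyte markers, CD3E, CD68 and LYZ had no count in any library, PTPRC had a single count in all, and the sum over the list was 1.48 to 1.64 CPM with B35 and 1.62 to 2.10 CPM in the controls. The sum of 6 fibroblast and pericyte markers, mostly COL1A1, was 19.8 to 22.8 CPM with B35 and 27.1 to 27.3 CPM in the controls, and no marker of that list passed. That of 4 endothelial markers was 7.38 to 9.44 CPM with B35 and 5.85 to 9.22 CPM in the controls, with KDR at 0. That of 4 platelet markers was 0.316 to 0.666 CPM with B35 and 0.416 to 0.725 CPM in the controls, with PF4, GP9 and PPBP at 0. The part of these lists in the results was not tested.

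The integrin and laminin genes that passed the test were all higher with B35. Of the 38 genes, 30 had enough counts to test, 10 rose with B35 and none fell (quasi-likelihood test of edgeR, p-values adjusted by Benjamini-Hochberg over 14773 genes, threshold 0.05). Among all genes tested, 15.4% changed, 8.82% upward and 6.59% downward, against 33.3% of the 30 that rose. The median log2 fold change (B35 over control) was 0.38 over the 30 and 0.007 over all genes tested. At an unadjusted p under 0.05, 15 of the 30 were higher and 0 lower, against 2455 higher and 2076 lower of 14773 genes. DESeq2 called 11 higher and 0 lower of 28 members tested, against 1238 higher and 1215 lower of 14063 genes. In 17 of the 30 genes every B35 library exceeded every control library, and in 0 every B35 library was below, against 18.8% and 17.5% of all genes tested. The genes that rose were the integrin subunits ITGA1, ITGA2, ITGB4, ITGA5, ITGB5, ITGB8, ITGAX and ITGB2 and the laminin chains LAMA4 and LAMB3. In bulk RNA, a higher level per cell and a larger share of cells that express a gene cannot be told apart. The 10 genes lie on 9 chromosomes, and the plot of values by library shows them side by side.

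**Figure D1:**
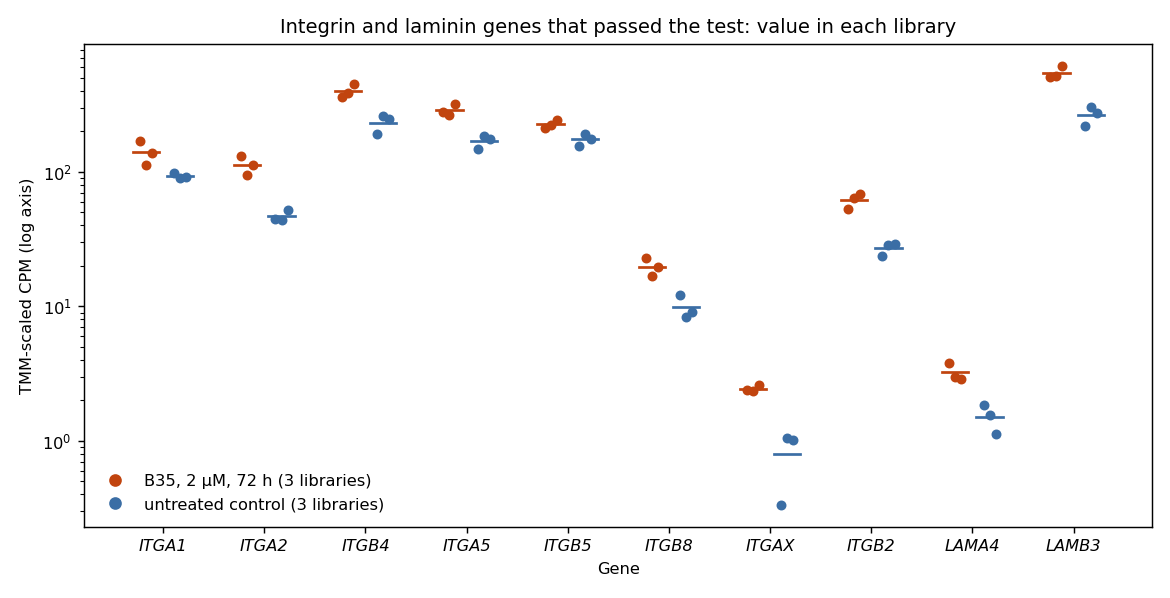
Level of the 10 genes that passed, in TMM-scaled CPM on a log axis, with 1 point per library, a line at the mean of each group, and B35 (2 µM, 72 h) left of the untreated control. In each gene the 3 B35 points lie above the 3 control points, from ITGAX with means of 2.43 and 0.799 CPM to LAMB3 with means of 548 and 266 CPM.

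Both collagen receptor subunits with enough counts rose, where 8.82% of all genes tested rose. ITGA2, the alpha subunit of an epithelial and platelet collagen receptor (ENSG00000164171, hg38 chromosome 5, 52989326 to 53094779, plus strand), was at 131, 95.1 and 113 CPM in the B35 libraries, against 45.05, 44.1 and 52.2 CPM in the control libraries. The lowest B35 library thus exceeded the highest control library by a wide margin. ITGA2 rose by 2.40-fold (log2 1.26 ± 0.128 SE, edgeR adjusted p = 0.000274), the smallest adjusted p of the 30 genes. ITGA1, a collagen receptor subunit that prefers basement membrane collagen (ENSG00000213949, chromosome 5, 52787896 to 52959210, plus strand), was at 169, 113 and 139 CPM with B35, against 97.4, 89.7 and 91.8 CPM in the controls. Its B35 libraries were spread more widely than its controls, and the groups did not overlap. ITGA1 rose by 1.51-fold (log2 0.59 ± 0.132 SE, edgeR adjusted p = 0.0134), and leaving out control replicate 2 or 3 ended its call (edgeR adjusted p = 0.0523 and 0.0662).

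These 2 genes are neighbours, with 30.1 kb between them on the same strand. PELO, a ribosome rescue factor encoded within ITGA1, shares 475 bases, 2.56% of the exon bases of ITGA1, and was at 56.0 ± 3.35 CPM with B35 and 55.8 ± 4.99 CPM in the controls (SD, n = 3 each). ITGA10 and ITGA11, the other collagen receptor subunits, had 11 and 4 counts over the B35 libraries and 8 and 1 over the controls, too few to test. The 250 bases before the RefSeq start of ITGA2 (GRCh38.p14, chr5:52989102-52989351, plus strand) are shown because this gene had the smallest adjusted p among the members. Capitals mark GGGCGG, the GC box that Sp1 family factors bind.

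ITGA2: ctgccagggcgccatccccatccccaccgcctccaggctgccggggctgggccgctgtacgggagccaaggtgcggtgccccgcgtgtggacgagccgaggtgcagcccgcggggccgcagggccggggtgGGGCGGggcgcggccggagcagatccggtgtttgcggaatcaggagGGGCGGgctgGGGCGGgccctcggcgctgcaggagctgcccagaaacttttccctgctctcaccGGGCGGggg

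The window holds 4 GC boxes, whose first bases lie 119, 73, 63 and 9 bases before the start. Of 35116 such windows in the RefSeq table, searched on both strands, 42.6% hold GGGCGG. Of the 33 windows of 26 integrin and laminin genes there, 17 hold it. Counted by gene, where some have several windows, 14 of the 26 hold it in at least 1 window. Of these, 5 are among the 7 that rose and have a window. The motif was chosen after the expression values were seen.

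Of 4 laminin receptor subunits tested, ITGB4 alone rose, where 8.82% of all genes tested rose. Its partner ITGA6 did not pass. ITGB4, the beta subunit of the hemidesmosome with a long cytoplasmic tail (ENSG00000132470, chromosome 17, 75721328 to 75757818, plus strand), was at 361, 386 and 454 CPM in the B35 libraries, against 191, 261 and 246 CPM in the control libraries. B35 replicate 3 was highest and control replicate 1 lowest. ITGB4 rose by 1.72-fold (log2 0.78 ± 0.13 SE, edgeR adjusted p = 0.00354), a call kept in each alternative tried. ITGA6 was at 102, 78.4 and 93.5 CPM with B35, against 67.3, 81.8 and 74.8 CPM in the controls, and these groups overlapped. Its log2 fold change was 0.29, with a 95% interval of 0.03 to 0.55 for this gene on its own (edgeR adjusted p = 0.125). ITGA3, which pairs with ITGB1 as a laminin receptor of epithelia, did not overlap between groups, at 422, 443 and 523 CPM with B35 against 304, 412 and 374 CPM in the controls. It did not pass (log2 0.35 ± 0.125 SE, edgeR adjusted p = 0.0827). ITGA7, a laminin receptor subunit of muscle, was low, at 2.01 ± 0.728 CPM with B35 and 1.45 ± 0.352 CPM in the controls (SD, n = 3 each).

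**Figure D2:**
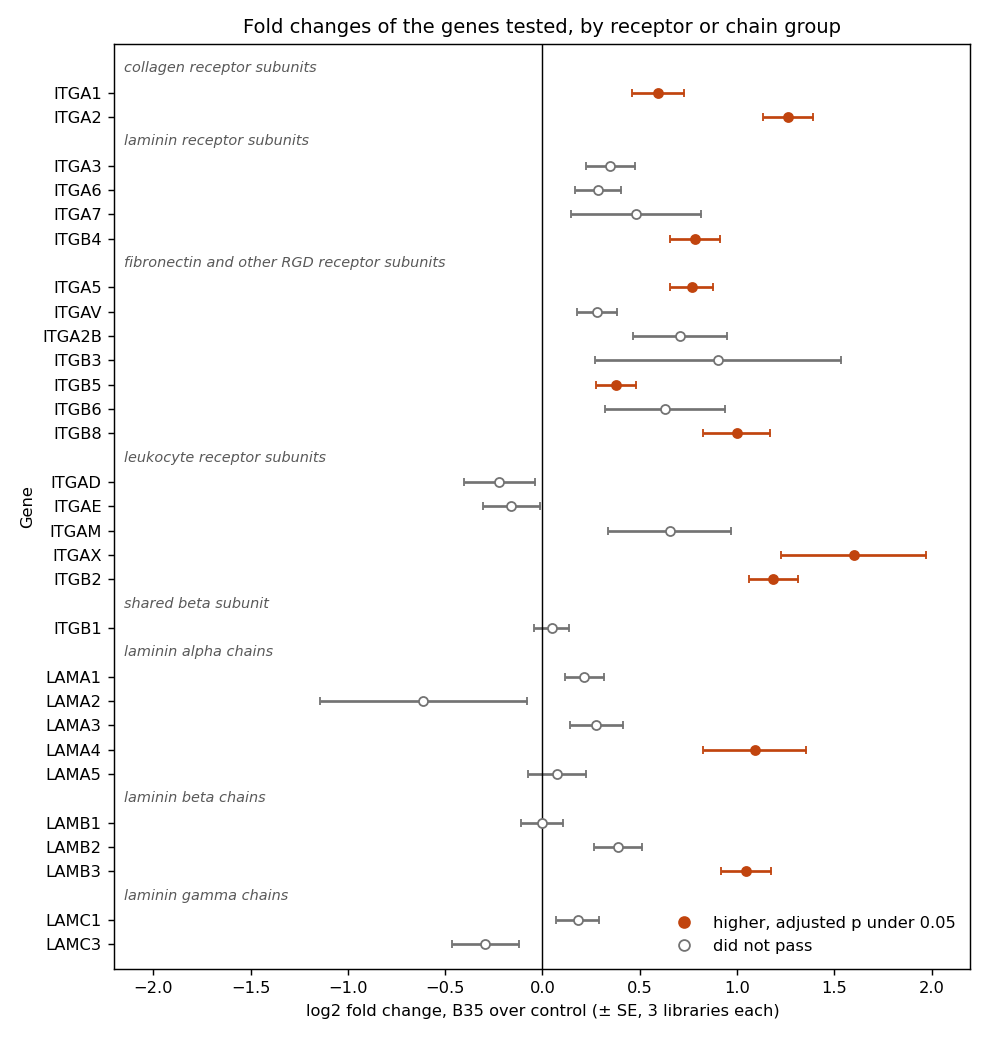
log2 fold change of B35 over control with its SE for the tested genes reported here (horizontal axis, 3 libraries a group), one gene per row within its receptor or chain group. Filled points are the 10 genes that passed, from ITGB5 at 0.38 to ITGAX at 1.60, and open points did not pass.

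Of 8 subunits of fibronectin receptors and other receptors for the RGD motif, 7 were tested and 3 rose. The share over all genes tested was 8.82%. ITGA5, which with ITGB1 forms the main fibronectin receptor (ENSG00000161638, chromosome 12, 54395261 to 54419460, minus strand), was at 279.8, 267 and 321 CPM with B35, against 148, 185 and 177 CPM in the controls. Each B35 library was above each control library. ITGA5 rose by 1.70-fold (log2 0.77 ± 0.112 SE, edgeR adjusted p = 0.00191). ITGB8, a partner of ITGAV that binds latent TGF-beta (ENSG00000105855, chromosome 7, 20330702 to 20415754, plus strand), was at 22.8, 16.7 and 19.8 CPM with B35, against 12.2, 8.36 and 9.10 CPM in the controls. Replicate 1 was the highest of each group. ITGB8 rose by 2.00-fold (log2 1.00 ± 0.172 SE, edgeR adjusted p = 0.0041).

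The smallest rise was that of ITGB5, the beta subunit of a vitronectin receptor (ENSG00000082781, chromosome 3, 124761948 to 124901418, minus strand). It was at 213, 225 and 243 CPM in the B35 libraries, against 157, 191 and 176 CPM in the control libraries, which is 1.30-fold higher (log2 0.38 ± 0.101 SE, edgeR adjusted p = 0.0293). This call was the least stable of the 10: it was lost when control replicate 1 or 3 was left out, and when B35 replicate 2 or 3 was (edgeR adjusted p = 0.126, 0.123, 0.0665 and 0.082). ITGAV, the alpha subunit that ITGB5, ITGB6 and ITGB8 share, was at 150.3, 123 and 145 CPM with B35, against 122, 110.02 and 113 CPM in the controls. Its groups did not overlap, but it did not pass (log2 0.28 ± 0.101 SE, edgeR adjusted p = 0.0842).

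The remaining RGD receptor subunits were scarce. ITGA2B, the platelet fibrinogen receptor subunit, was at 4.68 ± 0.994 CPM with B35 and 2.87 ± 0.603 CPM in the controls (SD, n = 3 each; edgeR adjusted p = 0.0725). ITGB6, an epithelial partner of ITGAV, was at 2.05 ± 0.533 CPM with B35 and 1.32 ± 0.268 CPM in the controls (SD, n = 3 each; edgeR adjusted p = 0.192). ITGB3, the partner of ITGA2B in platelets, was at 0.641 ± 0.344 CPM with B35 and 0.335 ± 0.29 CPM in the controls (SD, n = 3 each). AC068234.1, a same-strand gene, covers 51.6% of the exon bases of ITGB3, so its reads could be shared, as could those of ITGB6 with AC092153.1 over 20.6%. ITGA8 and ITGA4 had no count in any library, and ITGA9 had 4 counts over the B35 libraries and 5 over the controls. A sum of 0 counts allows up to 3, or 0.0558 CPM over the B35 libraries and 0.0557 CPM over the controls, which covers counting error alone.

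ITGB1, the beta subunit that many of these alpha subunits need, did not pass. It was at 691, 599.8 and 603 CPM in the B35 libraries, against 591, 617 and 626 CPM in the control libraries, and the groups overlapped. It had a log2 fold change of 0.05 with a 95% interval of −0.15 to 0.24 (edgeR adjusted p = 0.774), and was −0.03 without B35 replicate 1. No test compared its change with that of ITGA2 or ITGA5.

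Of 7 subunits known from leukocytes, 5 were tested and 2 rose, where 8.82% of all genes tested rose. ITGB2, the beta subunit common to ITGAL, ITGAM, ITGAX and ITGAD (ENSG00000160255, chromosome 21, 44885953 to 44931989, minus strand), was at 52.7, 63.8 and 68.9 CPM with B35, against 23.8, 28.6 and 29.02 CPM in the controls. All of the B35 libraries stood well above the controls. ITGB2 rose by 2.28-fold (log2 1.19 ± 0.127 SE, edgeR adjusted p = 0.000352). ITGAX, a complement receptor subunit of myeloid cells (ENSG00000140678, chromosome 16, 31355134 to 31382997, plus strand), had 42, 42 and 49 counts in the B35 libraries, against 6, 19 and 17 counts in the controls. It rose by 3.03-fold (log2 1.60 ± 0.372 SE, edgeR adjusted p = 0.0163), at a level of 2.43 CPM with B35 and 0.799 CPM in the controls. It met the count minimum in each of the B35 libraries and in 2 of the 3 controls. The B35 libraries thus brought ITGAX, 1 of the 2 counted here, into the test.

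The other ITGB2 partners did not pass. ITGAM, a complement receptor subunit, was at 1.76 ± 0.258 CPM with B35 and 1.11 ± 0.333 CPM in the controls (SD, n = 3 each; edgeR adjusted p = 0.187). ITGAD was at 6.27, 8.05 and 8.70 CPM with B35, against 8.08, 10.9 and 7.91 CPM in the controls (edgeR adjusted p = 0.455). The 3 genes lie in a row on chromosome 16, with 22.2 kb between ITGAM and ITGAX and 10.3 kb between ITGAX and ITGAD. ITGAL, the lymphocyte partner of ITGB2, had 3 counts over the B35 libraries and 0 over the controls, both at or under the floor. ITGAE, which binds E-cadherin on epithelia, was at 24.8 ± 5.09 CPM with B35 and 27.7 ± 0.549 CPM in the controls (SD, n = 3 each; edgeR adjusted p = 0.506). ITGB7, its partner, had 5 counts over the B35 libraries and 9 over the controls, in a gene that shares 42.1% of its exon bases with ZNF740 on the other strand. The ranges of the summed leukocyte markers, given above, overlapped between the groups.

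Of the 12 laminin chains, 11 were tested, and LAMB3 and LAMA4 rose, which is 18.2%, against 8.82% of all genes tested. LAMB3, the beta chain of the epithelial anchoring laminin (ENSG00000196878, chromosome 1, 209614870 to 209652466, minus strand), was at 510.2, 521 and 614 CPM in the B35 libraries, against 219, 302 and 276 CPM in the control libraries. The groups were far apart, with control replicate 1 lowest. LAMB3 rose by 2.07-fold (log2 1.05 ± 0.127 SE, edgeR adjusted p = 0.00073). LAMA4, the alpha chain of laminins in vessel walls (ENSG00000112769, chromosome 6, 112108760 to 112254939, minus strand), was at 3.79, 2.997 and 2.90 CPM with B35, against 1.84, 1.55 and 1.13 CPM in the controls. It rose by 2.13-fold (log2 1.09 ± 0.265 SE, edgeR adjusted p = 0.0199) from a low level, and leaving out control replicate 2 or 3 ended its call (edgeR adjusted p = 0.06 and 0.0975).

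LAMA3, the alpha chain that shares a trimer with LAMB3, did not pass. It was at 54.4, 47.0 and 60.8 CPM with B35, against 36.8, 50.7 and 46.3 CPM in the controls, and the groups overlapped (log2 0.28 ± 0.137 SE, edgeR adjusted p = 0.197). Whether its change differs from that of LAMB3 was not tested. RefSeq starts of LAMB3 and LAMA3 are shown because, among 26 integrin and laminin genes, only these 2 hold TGANTCA, the element that AP-1 factors bind. It is in 2 of the 33 windows of the 26 genes, near the share of all 35116 windows, of which 6.57% hold it. The search was made after the expression values were seen. The LAMB3 stretch is the 250 bases before its innermost start (GRCh38.p14, chr1:209651375-209651624, minus strand). The LAMA3 stretches are 27 bases each (GRCh38.p14, chr18:23872885-23872911 and chr18:23872941-23872967, plus strand). Capitals mark TGANTCA and, in LAMB3, also GGGCGG.

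LAMB3: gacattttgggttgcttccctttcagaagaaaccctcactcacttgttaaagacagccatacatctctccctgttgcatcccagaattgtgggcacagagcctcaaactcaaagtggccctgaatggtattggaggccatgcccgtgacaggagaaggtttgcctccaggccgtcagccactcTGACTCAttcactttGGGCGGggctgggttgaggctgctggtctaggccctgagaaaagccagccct
LAMA3, outer: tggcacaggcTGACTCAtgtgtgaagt
LAMA3, inner: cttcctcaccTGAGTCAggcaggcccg

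In LAMB3 the element begins 67 bases before the start and the GC box 52 bases before it. In LAMA3 the elements begin 125 and 69 bases before the start. The LAMA3 start, at 23873020, lies inside the gene, and no window before the gene start at 23689443 was searched. Of the 250 bases of the LAMA3 window, 180 lie in exons, against 20 in the LAMB3 window shown. The LAMB3 start shown, at 209651374, also lies inside its gene, which on the minus strand begins at 209652466. The element thus lies before an internal start both in LAMB3, which rose, and in LAMA3, which did not pass. The windows before the other LAMB3 starts do not hold the element. These are matches of letters in the reference sequence, and no binding was measured.

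The main chains of the widespread laminins did not pass. LAMA5, the most abundant alpha chain, was at 747, 771 and 1003 CPM with B35, against 638, 922 and 832 CPM in the controls (log2 0.08, 95% interval −0.25 to 0.40). LAMB1 was at 472, 391 and 413 CPM with B35, against 374, 458 and 447 CPM in the controls, with a log2 fold change of −0.003 and a 95% interval of −0.24 to 0.24. LAMC1, the gamma chain of most laminins, was at 326, 286 and 313 CPM with B35, against 233, 302 and 282 CPM in the controls (edgeR adjusted p = 0.297). In each of the 3 the groups overlapped, and the adjusted p of LAMA5 and LAMB1 was 0.778 and 0.992. LAMB2, a beta chain of kidney and muscle basement membranes, was close to the threshold, at 46.7, 49.9 and 53.4 CPM with B35 against 32.9, 44.7 and 37.2 CPM in the controls. Its groups did not overlap (log2 0.39 ± 0.123 SE, edgeR adjusted p = 0.0567), and it passed in 7 of 13 alternatives. LAMA1, LAMA2 and LAMC3 also did not pass, with log2 fold changes of 0.22, −0.61 and −0.29, and LAMB4 had no count in any library.

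Levels per length were read from the FPKM values (counts per kilobase of merged exons, each library scaled by its own constant) that the authors deposited. This constant was 1.04, 1.01 and 1.05 times the library total with B35 and 0.984, 0.988 and 0.982 times in the controls. LAMB3 had the highest FPKM of the 38 genes with B35, at 115 ± 11.4 FPKM, and stood second to ITGB1 in the controls, at 56.4 ± 9.09 FPKM (SD, n = 3 each). ITGB1 was at 103 ± 8.46 FPKM with B35 and 101 ± 3.17 FPKM in the controls, so with B35 these levels lay within their spread of each other. LAMB3 made up 62.7%, 66.7% and 69.1% of the summed FPKM of the beta chains in the B35 libraries, against 47.9%, 50.7% and 49.4% in the controls. The share of LAMB1 was 33.4%, 28.9% and 26.8% with B35, against 47.2%, 44.2% and 46.1% in the controls, as the plot of chain shares shows. The sum over beta chains was 174 ± 10.5 FPKM with B35 and 114 ± 15.4 FPKM in the controls. Among alpha chains LAMA5 held 90.6 ± 0.875% with B35 and 91.7 ± 0.764% in the controls (SD, n = 3 each).

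**Figure D3:**
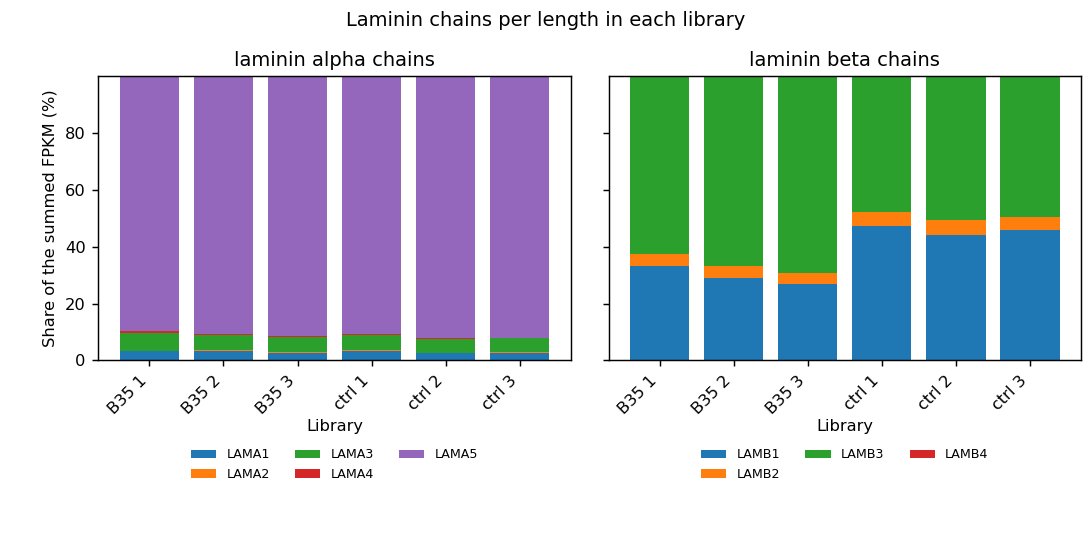
Share of each chain in the summed FPKM of the laminin alpha chains and of the beta chains (vertical axis, percent) in each library, with the 3 B35 libraries left of the 3 controls (ctrl). LAMB3 took 62.7% to 69.1% of the beta chains with B35 and 47.9% to 50.7% in the controls, while LAMA5 held most of the alpha chains in each library.

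The integrin subunits had their own order per length. Among alpha subunits ITGA3 was highest in both groups, at 46.5 ± 5.07 FPKM with B35 and 36.9 ± 5.58 FPKM in the controls, followed by ITGA5 at 37.6 ± 3.44 FPKM and 22.3 ± 2.58 FPKM (SD, n = 3 each). The next were ITGAV, at 16.8 ± 1.63 FPKM with B35 and 13.9 ± 0.733 FPKM in the controls, and ITGA2 and ITGA6. ITGA2 and ITGA6 lay within their spread of each other with B35, at 14.1 ± 2.19 and 13.7 ± 1.71 FPKM, whereas in the controls ITGA2 was at 5.93 ± 0.569 FPKM and ITGA6 at 11.4 ± 1.10 FPKM. ITGB4 was second to ITGB1 among beta subunits, at 58.3 ± 6.67 FPKM with B35 and 34.2 ± 5.46 FPKM in the controls, which is above its partner ITGA6 in each group. ITGB5 followed at 34.7 ± 2.23 FPKM with B35 and 27.0 ± 2.66 FPKM in the controls, and ITGB2 was at 8.96 ± 1.18 FPKM and 3.98 ± 0.43 FPKM. The partners of ITGB2 were lower, with ITGAD at 1.71 ± 0.277 FPKM with B35 and 2.02 ± 0.369 FPKM in the controls and ITGAX at 0.338 ± 0.0165 FPKM and 0.113 ± 0.0568 FPKM. ITGA1 has 18566 merged exon bases, the most of the 38 genes, so its FPKM depends heavily on that length.

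Most genes of proteins at the integrin tail did not pass. Of 21 tested tail and focal adhesion adaptors, 1 rose and 3 fell, with a median log2 fold change of 0.04, where 8.82% of all genes tested rose and 6.59% fell. With upper-quartile scaling 2 rose and 2 fell, against 1477 and 813 of 14773 genes. PARVA, which links integrin-linked kinase to actin, was at 76.6, 71.0 and 58.4 CPM with B35, against 112, 100.3 and 113 CPM in the controls, and fell by 1.58-fold (edgeR adjusted p = 0.00422). TNS2, a tensin, rose by 1.41-fold to 42.9 ± 1.55 CPM, against 30.5 ± 0.59 CPM in the controls (SD, n = 3 each), a call lost without control replicate 3 (edgeR adjusted p = 0.0067 and 0.0528). TLN2, a form of talin, and ITGB1BP1, an inhibitor of ITGB1 activation that shares 33.1% of its exon bases with ASAP2, fell by 1.38-fold and 1.30-fold. Both lost their calls without any 1 of the controls (edgeR adjusted p = 0.0386 and 0.0364 with all libraries), so that PARVA alone fell without control replicate 1, 2 or 3. Without B35 replicate 3 both calls were also lost, and that of TLN2 without B35 replicate 2 or with upper-quartile scaling (highest edgeR adjusted p 0.183 for TLN2 and 0.137 for ITGB1BP1).

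Of 9 hemidesmosome and integrin-associated membrane proteins, COL17A1 alone rose (11.1%), and none fell. This is near the share of all genes tested, of which 8.82% rose and 6.59% fell. At an unadjusted p under 0.05, 4 of the 9 were higher and 0 lower, against 2455 higher and 2076 lower of 14773 genes. DESeq2 called 1 gene of the list other than COL17A1 higher and 0 lower, against 1238 and 1215 of 14063 genes. COL17A1, a transmembrane collagen of hemidesmosomes, was at 1.61 ± 0.171 CPM with B35 and 0.617 ± 0.353 CPM in the controls (SD, n = 3 each; edgeR adjusted p = 0.0427). It had 32, 27 and 29 counts in the B35 libraries, against 10, 18 and 5 in the controls. The controls lay around the count minimum of 10, so the B35 libraries brought this gene into the test. Its call was lost in 6 of 13 alternatives, DESeq2 among them (highest adjusted p 0.17). PLEC, which ties ITGB4 to keratins, was at 652 CPM with B35 and 660 CPM in the controls (edgeR adjusted p = 0.963). DST was close to the threshold, at 134.5 ± 24.1 CPM with B35 and 100.3 ± 8.44 CPM in the controls (SD, n = 3 each; edgeR adjusted p = 0.0501). CD47 and CD9 were also higher without passing (edgeR adjusted p = 0.0644 and 0.0654), and in DST, CD47 and CD9 the groups did not overlap. When trends on GC content and length were removed, 4 genes of this list rose, against 1936 of 14766 genes tested. With upper-quartile scaling 3 of the list rose, against 1477 of 14773. With control replicate 1 or 3, or B35 replicate 3, left out, 0 of the list rose, against 661, 587 and 957 among all genes tested.

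Among 18 tested integrin ligands and basement membrane genes, 4 rose (22.2%) and 2 fell, where 8.82% of all genes tested rose and 6.59% fell. FN1, the fibronectin that ITGA5 binds, was at 76.2, 56.8 and 66.9 CPM with B35, against 30.9, 39.9 and 38.7 CPM in the controls. The groups were well apart, and FN1 rose by 1.83-fold (log2 0.87 ± 0.135 SE, edgeR adjusted p = 0.00259). VTN, the vitronectin that ITGB5 binds with ITGAV, was at 7.18, 7.99 and 7.75 CPM with B35, against 13.5, 14.9 and 13.3 CPM in the controls. VTN fell by 1.82-fold (edgeR adjusted p = 0.00251), and AC002094.3 covers 13.6% of its exon bases. COL4A3, a chain of basement membrane collagen, rose by 2.51-fold to 7.91 ± 1.29 CPM, against 3.15 ± 0.701 CPM in the controls (SD, n = 3 each; edgeR adjusted p = 0.00308). ICAM1, the ligand of ITGB2 dimers, rose by 1.52-fold to 73.1 ± 3.78 CPM, against 48.2 ± 6.21 CPM in the controls (SD, n = 3 each; edgeR adjusted p = 0.00566). AC011511.5, on the other strand, covers 22.0% of the ICAM1 exon bases. The other changes were a rise of NTN4 by 1.31-fold and a fall of THBS1 by 1.48-fold (edgeR adjusted p = 0.026 and 0.00896), and the call of NTN4 was lost without any 1 of the controls or without B35 replicate 2 (highest edgeR adjusted p 0.1). FN1, COL4A3, ICAM1, VTN and THBS1 kept their calls in each of the 13 alternatives.

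Across the alternatives, 7 to 15 of the integrin and laminin genes rose and none fell, as the grid of settings shows. ITGA2, ITGB4, ITGA5, ITGB8, ITGAX, ITGB2 and LAMB3 passed in each of the 13. The lowest count, 7, came without control replicate 3, and the highest, 15, with the GC and length trends removed, where ITGA2B, ITGA3, ITGA6, ITGAV and LAMB2 also rose. Among all genes tested, 587 of 15185 and 1936 of 14766 rose in these settings.

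**Figure D4:**
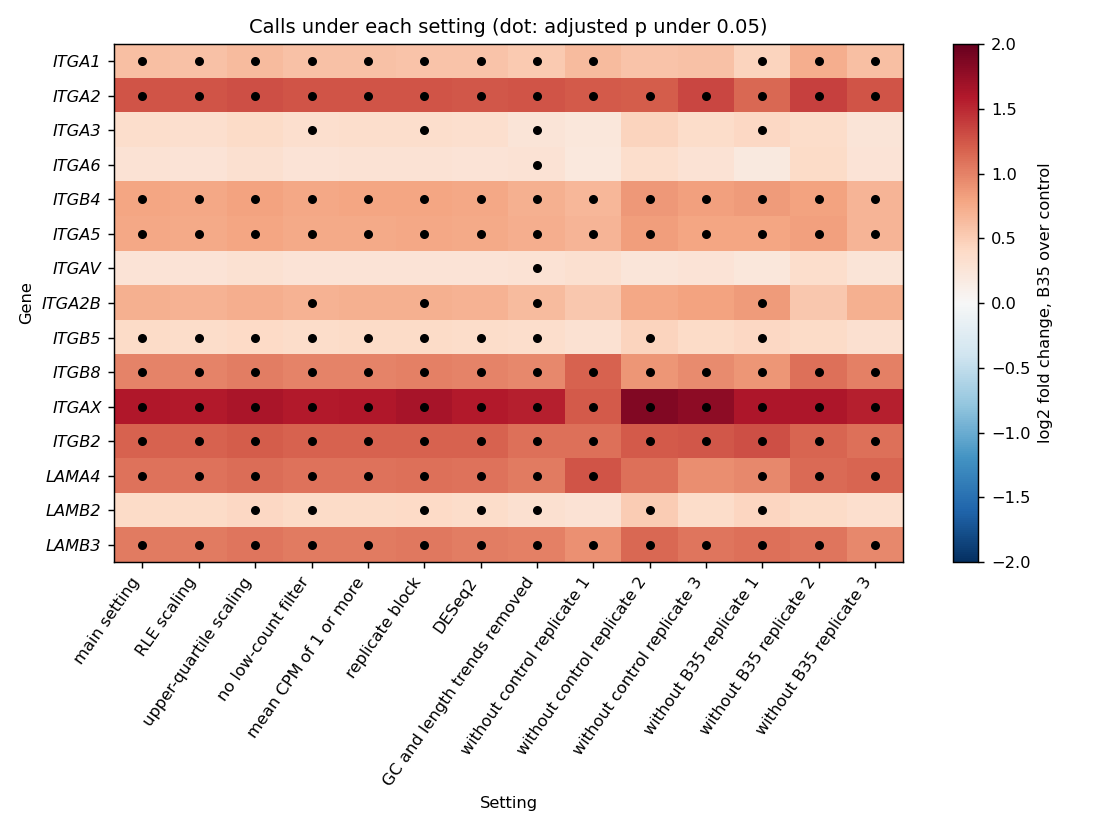
log2 fold change of B35 over control (colour) of the 15 genes that passed in at least 1 setting (rows), in the main setting and 13 alternatives (columns). A dot marks an adjusted p under 0.05, and ITGA2, ITGB4, ITGA5, ITGB8, ITGAX, ITGB2 and LAMB3 have a dot in every column.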

How the data were processed

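RNA of A549 cells was sequenced from NEBNext Ultra libraries, per the labels' protocols. The submitters' processing notes name HISAT2 2.0.5, featureCounts 1.5.0-p3 and hg38, and no source used here gives a strand setting. Each deposited file, per the file headers, gives the authors' whole-number count and FPKM for 58735 genes. The deposited FPKM matched the count over merged exon length to within 1% once each library was scaled by a constant.

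Counts were tested in R 4.3.3 with edgeR 4.0.16 (quasi-likelihood, two-sided), with TMM scaling over the 14773 genes left by filterByExpr (at least 10 counts in enough libraries, 15 in all). The SE is the log2 fold change over the root of F. The 95% intervals use its t distribution, with no adjustment for the number of genes. No replicate libraries were alike within counting noise (chi-square over its degrees of freedom 4.46 to 32.3). Exon overlaps came from GENCODE 29, promoters from RefSeq (GRCh38.p14). The test was checked on simulated data. DESeq2 was version 1.42.0, and tables and plots used Python 3.11.15. Alternatives were 2 scalings, 2 filters, a replicate block, DESeq2, GC and length offsets (GC of the longest transcript) and each library left out. Each gene of the family is named except 1 that is counted in the totals but not reported here, as is 1 marker. Of the pathway lists, those that passed are named. Members and lists were chosen with earlier results of these data known.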

Additional observations from a re-analysis of the deposited data

How the results depend on the processing

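The count of integrin and laminin genes that rose stayed within 1.5 times of 10 in each alternative, from 7 to 15, and 0 fell in each. The count over all genes, 2276, became 3891 with the GC and length trends removed and 881 to 3342 with 1 library left out. It was 1079, 1286 and 881 without control replicates 1, 2 and 3, fits with fewer libraries. For the other alternatives it was 2196 to 2895. With the replicate number as a block, 2855 genes were called and 13 of the integrin and laminin genes rose. Same-numbered libraries did not deviate together (correlations 0.163, 0.016 and −0.063), so the numbers were not taken as pairs. Of 386 gene values under alternatives, 352 kept direction and side of the threshold, 8 lost the call and 17 gained it. The 9 that changed sign belong to genes near 0: ITGB1 (−0.025 to 0.08 with 1 library left out), LAMA5 (−0.056 with the GC and length trends removed, −0.07 to 0.189 with 1 library left out) and LAMB1 (0.027 with upper-quartile scaling, −0.09 to 0.051 with 1 library left out). None of these passed, and the cause was not tested. Genes with few counts, such as ITGB3 and LAMA2, have wide errors at this depth.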
